A study of Mus musculus with 8 samples.

Results

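The 10 genes described here encode the ligands, receptors and Smads of transforming growth factor beta (TGF-beta) signalling in the mouse: Tgfb1, Tgfb2, Tgfb3, Tgfbr1, Tgfbr2, Tgfbr3, Smad2, Smad3, Smad6 and Smad7. They are the rows of the deposited count table whose Ensembl identifiers carry these symbols in the GRCm38 annotation. They were taken by name, but with earlier results of these data known, as were the gene lists used below. The table holds 55487 gene identifiers, of which 17636 passed the filter on low counts and were tested; 10 of the 10 genes were among them. RNA came from hearts, per the labels, in 4 groups of 2 libraries: Set7KO after isoproterenol, Set7KO after saline, wild type (WT) after isoproterenol, and WT after saline. Set7KO mice carry a global knockout of Set7, the lysine methyltransferase encoded by Setd7, and were bred by crossing heterozygotes. Isoproterenol stimulates beta-adrenergic receptors, and its repeated use in rodents brings on cardiac fibrosis. Mice received it under the skin at 60 mg/kg, or saline, for 14 consecutive days. The labels give no strain, age, sex or batch; their titles carry a running number and a letter of unstated meaning. They do not say which stretch of Setd7 was removed or that each library is a separate animal. The p-values below therefore measure only the spread between these libraries.

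TGF-beta is secreted in a latent form and, once activated, is bound by the type II receptor, which recruits and phosphorylates the type I receptor. The type I receptor phosphorylates Smad2 and Smad3, which enter the nucleus and regulate transcription, while Smad6 and Smad7 hold the pathway back. In the heart the pathway is known for turning fibroblasts into matrix-producing cells. Much of it is regulated after transcription, by latency, phosphorylation and degradation, none of which is measured by RNA counts.

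The libraries held 27847069 to 51705705 counts. Setd7 had 3.79 and 3.92 CPM (counts scaled to library size) in Set7KO isoproterenol hearts and 4.45 and 5.70 CPM in Set7KO saline hearts, against 58.1 and 72.6 CPM in WT isoproterenol hearts and 43.7 and 43.0 CPM in WT saline hearts, so the libraries carried the genotype of their labels. The 10 cardiomyocyte markers summed to 89208 to 124896 CPM, with none at 0 in any library. The libraries also differed along the GC content of genes, in a pattern that crossed the groups. Of 5 equal GC classes of genes, the highest stood above the lowest by 0.19 and 0.64 (median log2 deviation) in the Set7KO isoproterenol libraries and by 0.55 and 0.86 in the WT saline libraries. The same difference was -1.08 and -0.78 in the WT isoproterenol libraries, and in the Set7KO saline group it was 0.36 in replicate 1 but -0.91 in replicate 2. Set7KO saline replicate 2 thus stood with the WT isoproterenol libraries, and the WT comparison of isoproterenol with saline coincides with the GC difference. The running numbers in the titles follow it too: the libraries with a negative difference are 9 (Set7KO saline replicate 2), 10 and 11 (WT isoproterenol), and those numbered 2, 3, 6, 7 and 8 have a positive one. What the numbers stand for is not given, so in WT, with 10 and 11 after isoproterenol and 7 and 8 after saline, they cannot be told apart from the treatment, and the interaction rests on the same WT libraries. By letter, Set7KO saline replicate 2 shares C with both WT saline libraries, while its Setd7 level is that of a Set7KO heart. Each fold change was therefore estimated a second time, with offsets in the model for the GC content and length of transcripts.

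Levels within a gene are given in CPM after TMM normalisation, and levels of different genes as CPM per kilobase of exon. By mean CPM per kilobase over the 8 libraries the order was Tgfb1 (8.97 ± 2.89 SD), Tgfbr2 (8.25 ± 1.04), Tgfb3 (7.40 ± 1.62), Tgfbr3 (5.60 ± 1.97), Smad3 (5.01 ± 1.48), Smad6 (4.73 ± 0.763), Smad7 (3.34 ± 0.593), Smad2 (1.31 ± 0.532), Tgfb2 (0.657 ± 0.190) and Tgfbr1 (0.526 ± 0.306). The ranges of neighbouring genes in this order overlapped except between Smad7 (2.62 to 4.63) and Smad2 (0.714 to 2.10). In every library Tgfb2 and Tgfbr1 lay under 1 CPM per kilobase. The type I receptor was thus the least abundant transcript of the 10 by mean level, and the type II receptor the one with the narrowest spread relative to its mean.

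**Figure D1:**
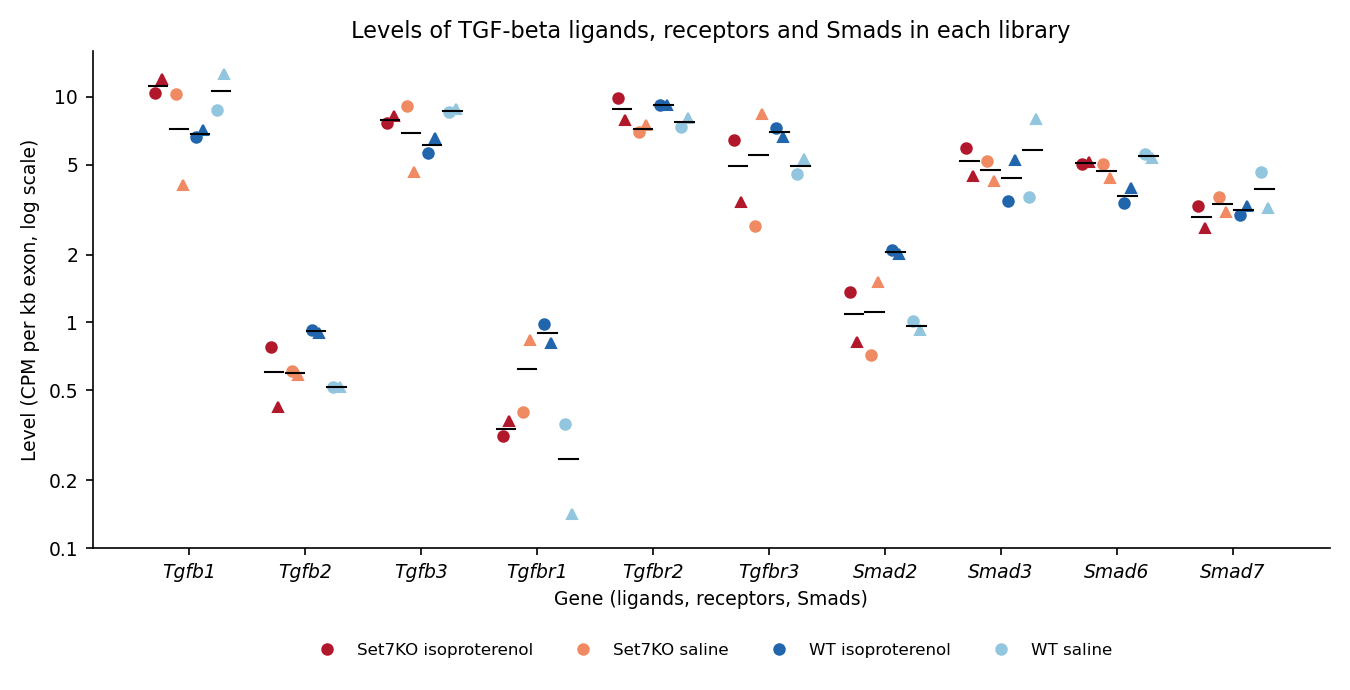
Level of each gene in CPM per kilobase of exon (log axis) in the 8 libraries. Colours mark the groups, circles are replicate 1, triangles are replicate 2 and bars are group means of 2 libraries. Tgfbr1 spans 0.142 to 0.986 CPM per kilobase, while Tgfbr2 stays between 6.96 and 9.84.

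No gene of the 10 passed an adjusted p of 0.05 for isoproterenol against saline in either genotype, averaged over genotypes, for Set7KO against WT after either treatment, or in the interaction (edgeR quasi-likelihood test, Benjamini-Hochberg adjustment over all genes tested). The share of all tested genes that passed was 0% for isoproterenol in Set7KO, 0% for isoproterenol in WT, 0.051% averaged over genotypes, 0.00567% for Set7KO against WT after saline, 0.00567% after isoproterenol and 0% in the interaction, so 0 of 10 is close to the background. At an unadjusted p under 0.05 the counts were 0 of 10 for isoproterenol in Set7KO (9.66% of all genes), 4 of 10 in WT (31.7%) and 0 of 10 averaged over genotypes (9.4%). They were 1 of 10 for Set7KO against WT after saline (10.3%), 2 of 10 after isoproterenol (19.9%) and 1 of 10 in the interaction (30.6%).

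Among the ligands, Tgfb1 (ENSMUSG00000002603, chromosome 7, 25687002 to 25705077) had 52.5 and 60.3 CPM in Set7KO isoproterenol hearts and 51.9 and 20.6 CPM in Set7KO saline hearts. It had 33.4 and 35.97 CPM in WT isoproterenol hearts and 44.0 and 63.4 CPM in WT saline hearts. The isoproterenol libraries lay above the saline libraries in Set7KO and below them in WT, without overlap in either genotype, but in Set7KO only a narrow gap separated the groups because replicate 1 after saline was close to the isoproterenol libraries. The log2 fold change for isoproterenol was 0.64 ± 0.40 SE in Set7KO (adjusted p = 0.629) and -0.63 ± 0.40 in WT (adjusted p = 0.285), and the interaction was 1.27 ± 0.56 (adjusted p = 0.167; edgeR). With GC and length offsets the interaction was 1.06 ± 0.49 (adjusted p = 0.360). The Set7KO value rests on Set7KO saline replicate 2, the library with the lowest Tgfb1 level. Without the other Set7KO saline library, replicate 1, Tgfb1 passed in edgeR for isoproterenol in Set7KO (log2 1.45, adjusted p = 0.0469, where 2.66% of all genes passed), for Set7KO against WT after saline (-1.39, adjusted p = 0.0402, 5.64%) and in the interaction (2.09, adjusted p = 0.00989, 31.6%); without replicate 2 the log2 fold change for isoproterenol in Set7KO was 0.12.

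Tgfb3 (ENSMUSG00000021253, chromosome 12, 86056745 to 86079041), the isoform with a level close to that of Tgfb1, had 25.8 and 27.8 CPM in Set7KO isoproterenol hearts, 30.8 and 15.7 CPM in Set7KO saline hearts, 19.0 and 22.2 CPM in WT isoproterenol hearts, and 28.9 and 29.9 CPM in WT saline hearts. The WT groups did not overlap, with isoproterenol lower, while the Set7KO isoproterenol libraries lay between the Set7KO saline libraries. The log2 fold change for isoproterenol was 0.21 ± 0.31 in Set7KO (adjusted p = 0.845) and -0.51 ± 0.31 in WT (adjusted p = 0.269; edgeR). Over the 8 libraries the log2 levels of Tgfb1 and Tgfb3 correlated at r = 0.93, and at 0.90 with the offsets, as a description of libraries that share groups and the GC difference. Tgfb2 (ENSMUSG00000039239, chromosome 1, 186622792 to 186705989), the third isoform, had 4.52 and 2.45 CPM in Set7KO isoproterenol hearts, 3.51 and 3.39 CPM in Set7KO saline hearts, 5.38 and 5.22 CPM in WT isoproterenol hearts, and 2.99 and 2.98 CPM in WT saline hearts. It was higher after isoproterenol in WT without overlap (log2 0.83 ± 0.33, unadjusted p = 0.0363, adjusted p = 0.136; edgeR), and the Set7KO groups overlapped (0.02 ± 0.33, adjusted p = 0.989). With offsets the WT value was 0.30 ± 0.27. Annotated genes on the opposite strand share exonic bases with Tgfb2 (124 with Gm29491) and Tgfb3 (257 with Gm48008 and 163 with Gm37804). The library kit keeps strand, but no source used here says whether counting used it, so a share of these reads is uncertain.

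Summed per kilobase, the ligands reached 18.8 and 20.6 in Set7KO isoproterenol hearts, 20.0 and 9.31 in Set7KO saline hearts, 13.2 and 14.6 in WT isoproterenol hearts, and 17.8 and 21.9 in WT saline hearts. The lowest sum was that of Set7KO saline replicate 2. In WT the isoproterenol libraries lay below the saline libraries without overlap, while the Set7KO groups overlapped. Over both genotypes the isoproterenol and saline libraries overlapped. The log2 difference, isoproterenol minus saline, was 0.01 (two-sided exact permutation test within genotype, 36 splits, p = 1; the smallest p this design allows is 0.0556). This difference averages both genotypes, and it was -0.27 without Set7KO saline replicate 2 and 0.28 without replicate 1. Tgfb1 made up 43.8% to 58.0% of the sum, Tgfb3 39.9% to 49.9% and Tgfb2 2.05% to 7.05%. The promoter of Tgfb1, shown because this ligand had the highest mean level, is known to be rich in GC boxes; the window from RefSeq on GRCm38.p6, plus strand, chr7:25686752-25687051, holds 250 bases before and 50 after the gene's start, with the GC box core GGGCGG (either strand) in capitals. It holds 6 matches, and 35.7% of 32851 promoter windows hold at least 1. The window had 77.0% GC, against a median of 52.7% over all windows.
Tgfb1 promoter: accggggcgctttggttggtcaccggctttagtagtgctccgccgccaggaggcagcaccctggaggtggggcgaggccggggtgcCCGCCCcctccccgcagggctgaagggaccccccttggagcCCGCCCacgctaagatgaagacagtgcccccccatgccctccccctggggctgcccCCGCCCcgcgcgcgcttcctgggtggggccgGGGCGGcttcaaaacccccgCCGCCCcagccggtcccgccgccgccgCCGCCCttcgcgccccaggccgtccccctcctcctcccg

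Tgfbr1 (ENSMUSG00000007613, chromosome 4, 47353222 to 47414931), the type I receptor kinase, had the widest range of the 10 genes, 6.94-fold from the lowest to the highest library. It had 2.05 and 2.38 CPM in Set7KO isoproterenol hearts and 2.63 and 5.46 CPM in Set7KO saline hearts, and it had 6.44 and 5.31 CPM in WT isoproterenol hearts and 2.31 and 0.928 CPM in WT saline hearts. The isoproterenol libraries lay below the saline libraries in Set7KO and above them in WT, without overlap in either genotype. These levels rest on 28 to 284 counts per library. The log2 fold change for isoproterenol was -0.88 ± 0.48 in Set7KO (adjusted p = 0.591) and 1.86 ± 0.50 in WT (3.64-fold, adjusted p = 0.0941), and the interaction was -2.74 ± 0.69 (95% interval -4.33 to -1.16 before adjustment, adjusted p = 0.0900; edgeR). The WT value was 2.65 without WT saline replicate 1 and 1.31 without WT saline replicate 2, and the interaction ran from -3.53 without WT saline replicate 1 to -2.09 without Set7KO saline replicate 2. Set7KO against WT gave -1.41 ± 0.49 after isoproterenol (adjusted p = 0.229) and 1.33 ± 0.49 after saline (adjusted p = 0.483).

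Whether Tgfbr1 passed depended on the method. DESeq2 put Tgfbr1 past it for isoproterenol in WT (adjusted p = 0.0122, where 15.4% of genes passed) and in the interaction (adjusted p = 0.00913, where 13.2% passed). Without the filter on low counts it also passed in both (adjusted p = 0.0276 and 0.0184, where 5.2% and 5.8% of genes passed; edgeR). With GC and length offsets the WT log2 fold change was 0.70 ± 0.34 (adjusted p = 0.347) and the interaction -0.91 ± 0.47 (adjusted p = 0.402). Leaving out Set7KO saline replicate 1 put Tgfbr1 (log2 -3.17, adjusted p = 0.0117), Smad2 (-1.55, adjusted p = 0.0282) and Tgfb3 (1.29, adjusted p = 0.0207) past the threshold in the interaction, as it did Tgfb1, so that 4 of the 10 passed where 31.6% of all genes did (edgeR). Leaving out Set7KO saline replicate 1 or 2 put Tgfbr1 and Smad2 past it in WT, 2 of 10 where 20.1% and 20.7% of all genes passed. These shares of the 10 are close to the background. The transcript of Tgfbr1 has 41.0% GC, the lowest of the 10 genes, and the median log2 fold change of the 881 genes in its GC class was 1.24 in WT, or 0.05 with offsets.

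The promoter window of Tgfbr1 is shown to set it beside that of Tgfb1: its transcript is AT-rich but its start is not. It comes from RefSeq, GRCm38.p6, plus strand, chr4:47352972-47353271, and the capitals mark GGGCGG or its reverse complement. The window holds 2 matches and has 74.7% GC.
Tgfbr1 promoter: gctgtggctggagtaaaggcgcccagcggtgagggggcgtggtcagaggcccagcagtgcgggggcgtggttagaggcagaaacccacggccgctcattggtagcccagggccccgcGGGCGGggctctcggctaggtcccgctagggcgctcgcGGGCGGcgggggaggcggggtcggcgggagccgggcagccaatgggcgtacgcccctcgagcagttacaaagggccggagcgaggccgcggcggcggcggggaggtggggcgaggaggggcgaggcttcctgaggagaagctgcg

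Tgfbr2 (ENSMUSG00000032440, chromosome 9, 116084293 to 116175360), the type II receptor that binds the ligand, had 80.6 and 64.6 CPM in Set7KO isoproterenol hearts, 56.9 and 61.4 CPM in Set7KO saline hearts, 75.6 and 75.2 CPM in WT isoproterenol hearts, and 60.2 and 65.9 CPM in WT saline hearts. Within each genotype the isoproterenol libraries lay above the saline libraries, by similar amounts, and over both genotypes the groups overlapped only because 1 isoproterenol library lay just below the highest saline library. Its log2 fold change was 0.29 ± 0.20 in Set7KO, 0.26 ± 0.20 in WT and 0.28 ± 0.14 averaged (95% interval -0.05 to 0.61 before adjustment, adjusted p = 0.592; edgeR), with an interaction of 0.04 ± 0.29. With offsets the values were 0.35 ± 0.15, 0.04 ± 0.15 and 0.19 ± 0.10. Tgfbr3 (ENSMUSG00000029287, chromosome 5, 107106570 to 107289629), betaglycan, a co-receptor that presents the ligand, had 42.3 and 22.4 CPM in Set7KO isoproterenol hearts, 17.5 and 55.2 CPM in Set7KO saline hearts, 47.7 and 43.6 CPM in WT isoproterenol hearts, and 29.7 and 34.7 CPM in WT saline hearts. The Set7KO saline libraries were the lowest and the highest of the 8, and the WT groups did not overlap. Its exons share 297 bases with Gm43422 on the same strand, so reads there cannot be assigned by strand. Its log2 fold change was -0.17 ± 0.49 in Set7KO and 0.50 ± 0.49 in WT (adjusted p = 0.920 and 0.486; edgeR).

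Smad2 (ENSMUSG00000024563, chromosome 18, 76241580 to 76310963), which the type I receptor phosphorylates, had 12.0 and 7.17 CPM in Set7KO isoproterenol hearts, 6.27 and 13.3 CPM in Set7KO saline hearts, 18.4 and 17.6 CPM in WT isoproterenol hearts, and 8.88 and 8.12 CPM in WT saline hearts. The WT isoproterenol libraries were the highest of the 8, and the Set7KO groups overlapped. The log2 fold change for isoproterenol was -0.03 ± 0.38 in Set7KO and 1.08 ± 0.39 in WT (2.12-fold, unadjusted p = 0.0225, adjusted p = 0.116), and Set7KO against WT after isoproterenol gave -0.91 ± 0.39 (adjusted p = 0.245; edgeR). With offsets the WT value was 0.19 ± 0.22 and the Set7KO value 0.39 ± 0.22. Smad3 (ENSMUSG00000032402, chromosome 9, 63646767 to 63757994), the other receptor-activated Smad, had 32.8 and 24.6 CPM in Set7KO isoproterenol hearts, 28.9 and 23.4 CPM in Set7KO saline hearts, 19.2 and 29.1 CPM in WT isoproterenol hearts, and 19.9 and 44.3 CPM in WT saline hearts. The groups overlapped in each genotype, and the WT saline pair differed by 2.23-fold. Its log2 fold change was 0.14 ± 0.39 in Set7KO and -0.41 ± 0.39 in WT; without WT saline replicate 2 the WT value was 0.24.

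Smad6 (ENSMUSG00000036867, chromosome 9, 63953076 to 64022059), an inhibitory Smad best known in the bone morphogenetic protein (BMP) branch, had 16.1 and 16.5 CPM in Set7KO isoproterenol hearts, 16.2 and 14.0 CPM in Set7KO saline hearts, 10.8 and 12.6 CPM in WT isoproterenol hearts, and 17.9 and 17.1 CPM in WT saline hearts. The WT isoproterenol libraries were the lowest of the 8. Isoproterenol gave a log2 fold change of 0.11 ± 0.22 in Set7KO and -0.58 ± 0.22 in WT (unadjusted p = 0.0294, adjusted p = 0.126; edgeR), and with offsets the WT value was 0.04 ± 0.20. Smad7 (ENSMUSG00000025880, chromosome 18, 75367529 to 75395935), which blocks the type I receptor and is itself a TGF-beta target, had 14.8 and 11.9 CPM in Set7KO isoproterenol hearts, 16.3 and 13.9 CPM in Set7KO saline hearts, 13.6 and 14.9 CPM in WT isoproterenol hearts, and 20.9 and 14.5 CPM in WT saline hearts. The groups overlapped in each genotype. For Smad7 the log2 fold change was -0.18 ± 0.26 in Set7KO and -0.32 ± 0.26 in WT. The averaged value, -0.25 ± 0.19, has an interval of -0.68 to 0.18 before adjustment. With offsets the Smad7 values were -0.36 ± 0.25 in Set7KO, 0.17 ± 0.25 in WT and -0.10 ± 0.18 averaged.

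The ratio of inhibitory to receptor-activated Smads, (Smad6 + Smad7) over (Smad2 + Smad3) per kilobase, was 1.14 and 1.48 in Set7KO isoproterenol hearts, 1.46 and 1.30 in Set7KO saline hearts, 1.15 and 0.995 in WT isoproterenol hearts, and 2.22 and 0.958 in WT saline hearts. The lowest and the highest ratio were both in WT saline hearts. The log2 difference between isoproterenol and saline was -0.27 (two-sided exact permutation test within genotype, p = 0.611, smallest possible 0.0556), and without WT saline replicate 1 it was 0.035.

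The Smad6 promoter window is shown for the motif GTCTAGAC, the palindromic Smad-binding element, marked in capitals; it comes from RefSeq, GRCm38.p6, minus strand, chr9:64022010-64022309. Its 1 match lies among the 0.21% of all windows that hold this sequence. GGGCGG, searched on both strands, matched 4 times there and is left in lower case, and the shorter Smad box CAGAC, which does not occur within GTCTAGAC on either strand, had no match against 49.6% of all windows with at least 1. Promoter windows were matched for 6 of the 10 genes, and a match describes the sequence only.
Smad6 promoter: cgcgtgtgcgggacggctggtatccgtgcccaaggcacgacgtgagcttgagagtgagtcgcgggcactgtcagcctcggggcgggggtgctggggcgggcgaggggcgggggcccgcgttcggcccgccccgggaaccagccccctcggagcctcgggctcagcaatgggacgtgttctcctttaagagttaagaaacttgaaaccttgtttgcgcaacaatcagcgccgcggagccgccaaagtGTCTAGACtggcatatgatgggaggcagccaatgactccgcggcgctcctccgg

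**Figure D2:**
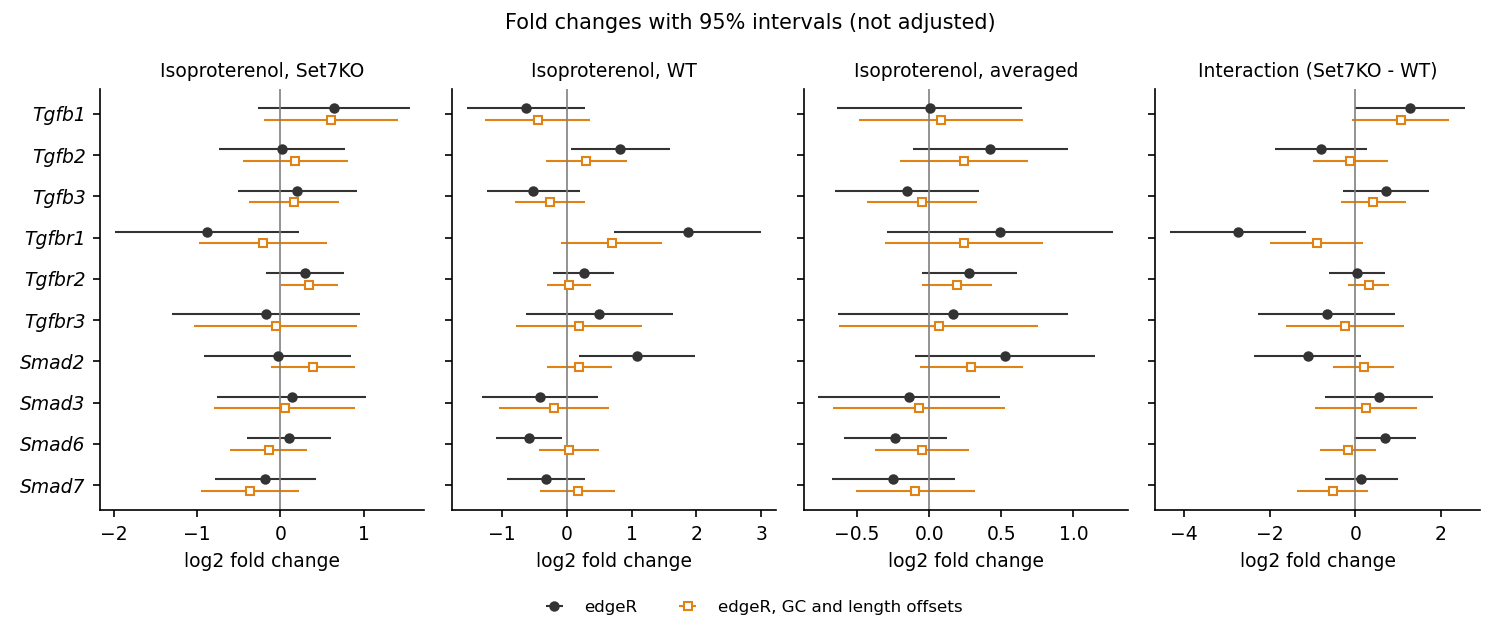
Log2 fold change of each gene for isoproterenol against saline in Set7KO, in WT and averaged, and the interaction (Set7KO minus WT), from edgeR without offsets (filled) and with GC and length offsets (open); bars are 95% intervals before adjustment over genes. For Tgfbr1 the interaction is -2.74 without offsets and -0.91 with them.

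The order of the genes by fold change in WT was close to their order by GC content. Tgfbr1 (41.0% GC), Smad2 (44.9%), Tgfb2 (46.9%), Tgfbr3 (48.6%) and Tgfbr2 (49.6%) had positive log2 fold changes for isoproterenol in WT, and Tgfb1 (52.5%), Tgfb3 (53.0%), Smad3 (53.1%), Smad7 (56.9%) and Smad6 (60.8%) negative ones. Spearman's rho between transcript GC content and log2 fold change was -0.83 over the 10 genes and -0.71 over 17604 genes, genes not being independent replicates. With offsets rho over all genes was -0.04, while over the 10 it was still -0.71. For the averaged values rho over the 10 was -0.95, and -0.92 with offsets, against -0.46 and -0.02 over all genes, and for the interaction it was 0.79, and 0.18 with offsets, against 0.73 and 0.03. The offsets thus brought rho close to 0 over all genes, but over the 10 the order by GC content was kept in WT and on average. Fold changes in WT without overlap between groups were seen for 8 of the 10 genes, against 72.7% of all genes. In Set7KO, where the saline pair was split along the GC difference, 3 of the 10 had no overlap (34.7% of all genes), and averaged over genotypes the groups overlapped for each of the 10 (4.13% of all genes had no overlap).

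With offsets, no gene of the 10 reached an unadjusted p under 0.05 in WT (16.3% of all genes), and in Set7KO only Tgfbr2 did (log2 0.35, unadjusted p = 0.0468, adjusted p = 0.535; 9.17% of all genes). Against the median of its GC class, the WT log2 fold change of Tgfbr1 was 1.86 beside 1.24, that of Smad2 1.08 beside 0.76, that of Tgfb1 -0.63 beside -0.23 and that of Smad6 -0.58 beside -0.69. What produced the GC difference was not tested.

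**Figure D3:**
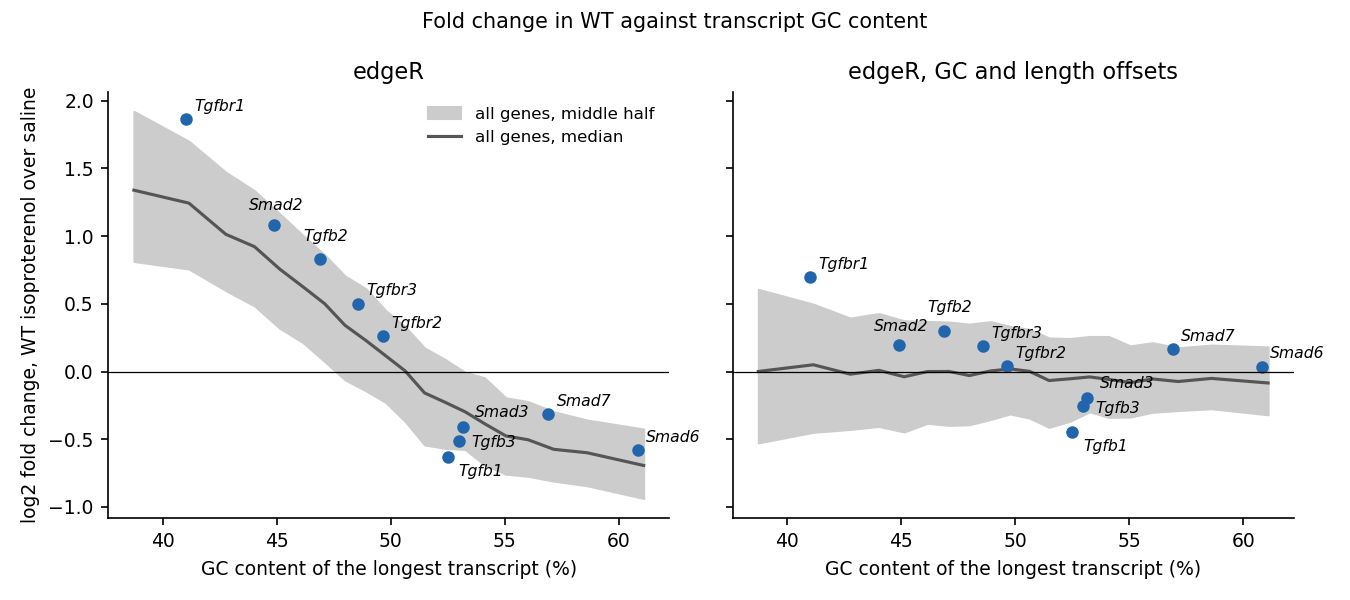
Log2 fold change for isoproterenol against saline in WT (vertical) against GC content of the longest transcript (horizontal, %) for the 10 genes (points), with the median (line) and the middle 50% (band) of all genes in 20 GC classes; left without and right with GC and length offsets. The points slope down with the line on the left, from 1.86 for Tgfbr1 to -0.58 for Smad6.

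Set7KO saline replicate 2 also had the lowest summed fibroblast and endothelial markers and the highest summed erythroid markers of the 8 libraries. For the other marker lists it was neither lowest nor highest. The smooth muscle and pericyte markers summed to 970 CPM there and to 967 CPM in Set7KO saline replicate 1. These sums are not adjusted for the GC difference. The 10 fibroblast markers summed to 4233 and 5764 CPM in Set7KO isoproterenol hearts, 3786 and 1556 CPM in Set7KO saline hearts, 2667 and 3281 CPM in WT isoproterenol hearts, and 3443 and 4117 CPM in WT saline hearts; none was at 0. The 8 erythroid markers summed to 10536 CPM in Set7KO saline replicate 2 and to 2683 to 4354 CPM in the other Set7KO libraries, and to 1521 and 1255 CPM in WT isoproterenol hearts, against 3770 and 4263 CPM in WT saline hearts. The 10 endothelial markers summed to 1771 and 2155 CPM in Set7KO isoproterenol hearts, 2184 and 1481 CPM in Set7KO saline hearts, 1802 and 1579 CPM in WT isoproterenol hearts, and 1904 and 2041 CPM in WT saline hearts. The fibroblast and endothelial lists were at their lowest in the library with the least Tgfb1. Their part in the Tgfb1 result was not tested, and in bulk hearts fewer cells of a type and less RNA per cell cannot be told apart. The 10 macrophage markers summed to 319 to 370 CPM in WT isoproterenol hearts and to 429 to 666 CPM in the other libraries. The 10 lymphocyte markers summed to 9.40 and 8.31 CPM in Set7KO isoproterenol hearts, 14.8 and 8.81 CPM in Set7KO saline hearts, 4.72 and 2.83 CPM in WT isoproterenol hearts, and 12.5 and 15.3 CPM in WT saline hearts, with Ms4a1 at 0 in at least 1 library of each group. For isoproterenol in WT, 8 of the 9 lymphocyte markers tested were lower at an unadjusted p under 0.05 (edgeR; median log2 -2.26, and -2.20 with offsets). So were 4 of 10 macrophage markers (-0.60, and -0.53 with offsets) and 4 of 7 erythroid markers (-1.49, and -1.05 with offsets). Of all genes, 13.3% were lower at that p. The 6 platelet and megakaryocyte markers summed to 20.4 and 36.9 CPM in Set7KO isoproterenol hearts and 35.3 and 26.4 CPM in Set7KO saline hearts. In WT they summed to 16.9 and 16.8 CPM after isoproterenol and 28.3 and 30.7 CPM after saline. The part of all these markers in the WT values of the 10 genes was not tested.

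**Figure D4:**
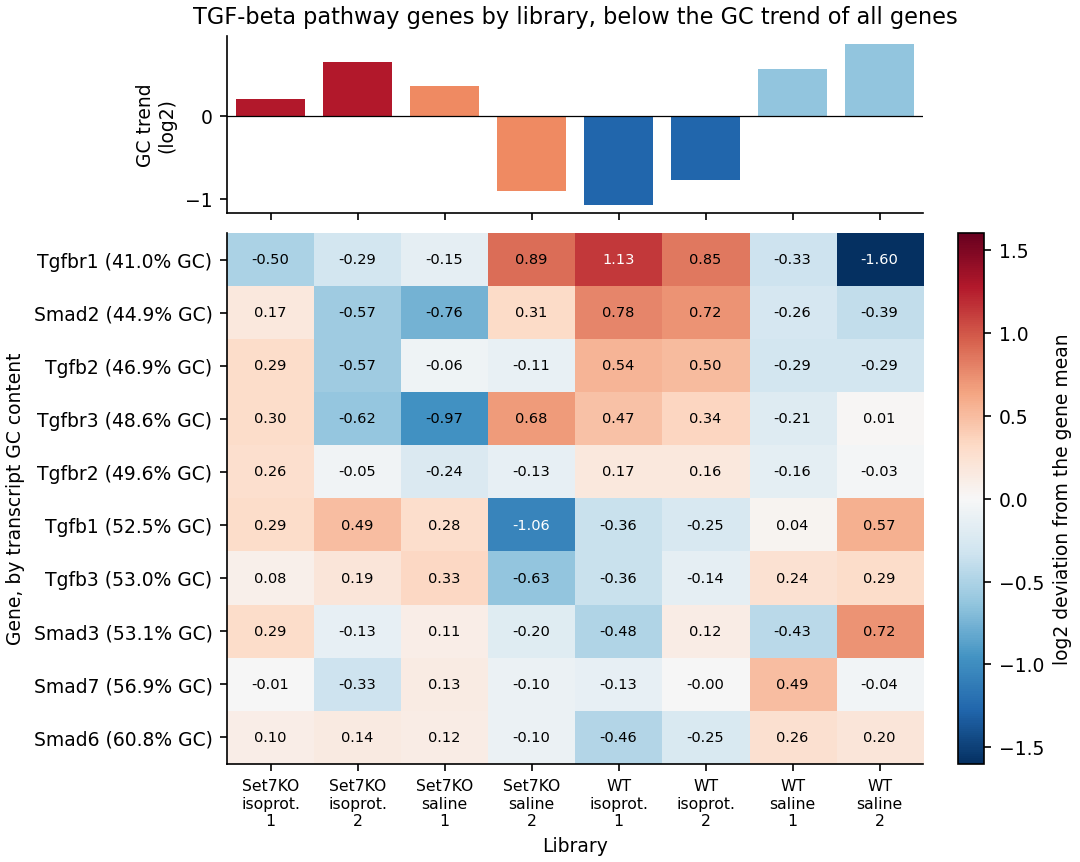
Lower panel: log2 deviation of each gene from its mean over the 8 libraries, rows ordered by transcript GC content; upper panel: highest minus lowest of 5 GC classes of all genes in each library (log2). In the libraries with a negative upper bar the top rows are mostly above their mean and the rows of Tgfb1, Tgfb3 and Smad6 below it.

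For each gene, the gene most like it over the 8 libraries (Pearson's r of log2 CPM among 10821 genes, no test) was Dmtn for Tgfb1 (r = 0.995), Atl1 for Tgfb2 (0.983), Coro7 for Tgfb3 (0.993), Mzt1 for Tgfbr1 (0.997), Cpe for Tgfbr2 (0.983), Fam217b for Tgfbr3 (0.993), Arrdc3 for Smad2 (0.995), Pigv for Smad3 (0.984), Ppp5c for Smad6 (0.983) and Stard8 for Smad7 (0.980). The libraries share groups and the GC difference. The number of genes with r over 0.95 was 318 for Tgfbr1, 233 for Smad2, 148 for Tgfb3 and 137 for Tgfb1, against 1 for Smad7 and 2 for Smad3. With offsets r was 0.30 between Tgfbr1 and Mzt1, but 0.96 between Tgfbr1 and each of the next in likeness, Zbtb37 and Col4a3bp, and 0.99 between Tgfb1 and Dmtn. Second and next in likeness to Tgfb1 were Cdh5 (0.991), the endothelial cadherin, and Flt4 (0.991), a VEGF receptor of lymphatic endothelium, and with offsets these were 0.98 and 0.93. For the other genes the second and next were Prickle2 and Enpp1 (Tgfb2), Nckap5l and Tsku (Tgfb3), Zbtb37 and Col4a3bp (Tgfbr1), Vps39 and Cdh20 (Tgfbr2), Fam185a and Grb10 (Tgfbr3), Cdc23 and Pter (Smad2), Swsap1 and Lingo3 (Smad3), Szrd1 and Kdm6b (Smad6), and Pcdhgb4 and Slc7a7 (Smad7). With offsets r in these pairs ran from 0.29 (Smad2 and Cdc23) to 0.99 (Tgfbr3 and Fam185a). It was 0.35 between Smad6 and Szrd1 and 0.37 between Smad7 and Pcdhgb4.

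Of 145 further genes of the pathway in 8 lists, 133 were tested, and 0 passed the adjusted threshold in any of the 6 comparisons (edgeR). At an unadjusted p under 0.05, averaged over genotypes, 11 were higher and 5 lower after isoproterenol, 12.0% against 9.4% of all genes, with a median log2 fold change of 0.10 against 0.02. In WT the count was 43 (32.3% against 31.7%) and in Set7KO 12 (9.02% against 9.66%).

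Among the signal modifiers, Bambi, a pseudoreceptor that blocks TGF-beta receptor complexes, had 45.8 and 35.97 CPM in Set7KO isoproterenol hearts, 17.6 and 14.3 CPM in Set7KO saline hearts, 36.01 and 34.7 CPM in WT isoproterenol hearts, and 19.0 and 20.4 CPM in WT saline hearts. Each isoproterenol library lay above each saline library, in both genotypes. Bambi was named for its small p in this same comparison, so the separation is no independent support. Such a separation held for none of the 10 ligand, receptor and Smad genes, which were not picked that way. It held for 4.13% of all genes in either direction. The log2 fold change was 1.36 ± 0.23 in Set7KO (adjusted p = 0.369), 0.85 ± 0.23 in WT (adjusted p = 0.0941) and 1.10 ± 0.16 averaged (2.15-fold, adjusted p = 0.0818; edgeR). The averaged value passed in DESeq2 (adjusted p = 2.78e-06, where 1.42% of genes passed) and without the filter on low counts (0.00924, 0.547%), and ranged over alternatives in adjusted p up to 0.450. With offsets it was 1.70 in Set7KO, -0.05 in WT and 0.82 averaged (adjusted p = 0.211), so that in WT the higher level was not present with offsets. Of the 20 modifiers tested, an unadjusted p under 0.05 averaged over genotypes was reached by 2, both higher, close to the 9.4% of all genes. Beside Bambi this was Cav1, caveolin 1, which takes part in receptor internalisation (0.55 ± 0.21, adjusted p = 0.439, edgeR). The ubiquitin ligase Wwp1 (interaction -2.91 ± 0.70, -0.79 with offsets) and the deubiquitinase Usp15 (-2.90 ± 0.66, -0.86 with offsets) had interactions as large as that of Tgfbr1 (adjusted p = 0.0883 and 0.0876; edgeR).

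Of 27 TGF-beta target genes tested, 4 reached an unadjusted p under 0.05 averaged over genotypes, and these 4 were higher, where 4.5% of all genes were higher and 4.9% lower. The median log2 fold change of the 27 was 0.25, or 0.15 with offsets, against 0.02 over all genes. Fibroblast markers were higher in the same comparison at that p for 3 of 10 (median 0.33), and smooth muscle and pericyte markers for 3 of 10 (median 0.06). In either list 0 were lower. By genotype, the summed fibroblast markers were higher after isoproterenol in Set7KO (4233 and 5764 against 3786 and 1556 CPM). In WT they were lower (2667 and 3281 against 3443 and 4117 CPM). The part of both marker lists in the target genes' values was not tested. The target list shares Col1a1 and Col1a2 with the fibroblast markers, and Acta2 and Tagln with the smooth muscle and pericyte markers. Igfbp3, an insulin-like growth factor binding protein, had 38.4 and 44.1 CPM in Set7KO isoproterenol hearts, 23.6 and 15.6 CPM in Set7KO saline hearts, 39.6 and 34.5 CPM in WT isoproterenol hearts, and 27.3 and 21.5 CPM in WT saline hearts. Its isoproterenol and saline libraries did not overlap. The averaged log2 fold change was 0.84 ± 0.19 (adjusted p = 0.196, edgeR) and 0.92 with offsets (adjusted p = 0.0963, edgeR). Igfbp3 too was named for its small p in this comparison, so its separation is no independent support. Postn, the matricellular protein periostin, had 15.8 and 5.96 CPM in Set7KO isoproterenol hearts, 8.68 and 4.47 CPM in Set7KO saline hearts, 35.5 and 17.3 CPM in WT isoproterenol hearts, and 4.74 and 6.93 CPM in WT saline hearts. The WT groups were apart and the Set7KO groups overlapped (averaged log2 1.46 ± 0.39, adjusted p = 0.284; 1.00 with offsets). Bhlhe40, a transcription factor, had an averaged value of 0.70 ± 0.23 (adjusted p = 0.373). Among 10 BMP target genes 1 was higher, Smad9 (0.65 ± 0.25, adjusted p = 0.456), where 4.5% of all genes were higher. The Id genes Id1 and Id3 did not reach an unadjusted p under 0.05.

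**Figure D5:**
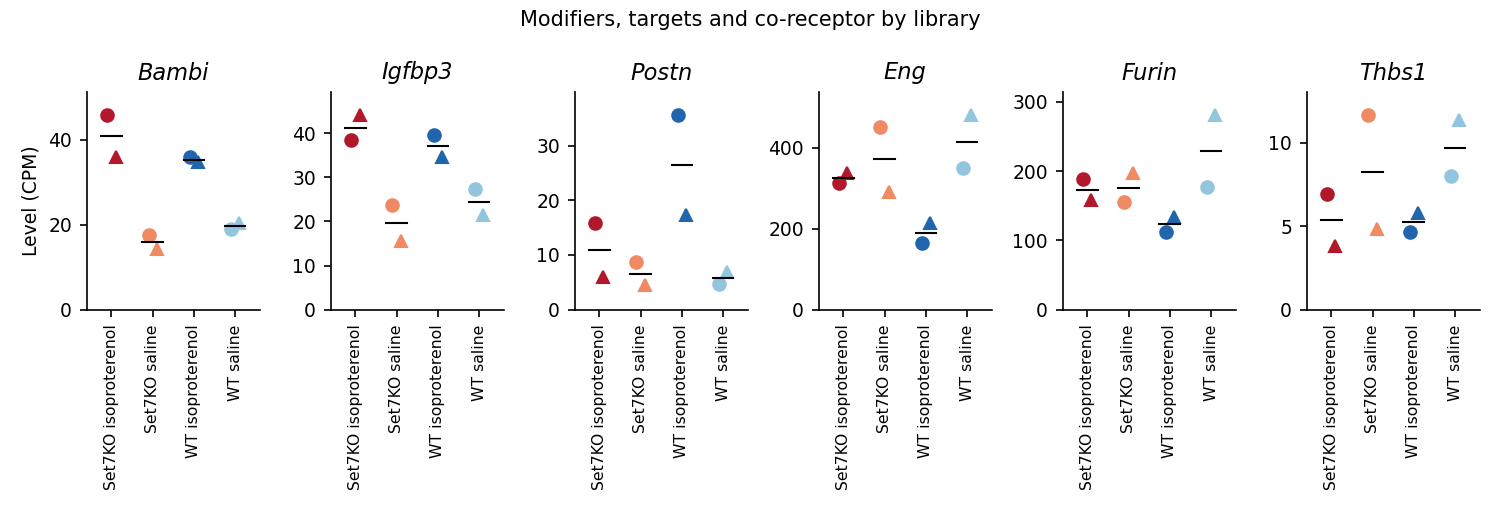
Level in CPM (vertical, each panel from 0) of 6 pathway genes in the 8 libraries; circles are replicate 1, triangles replicate 2 and bars group means of 2 libraries. In the panels of Bambi and Igfbp3 each isoproterenol library is above each saline library, and in the panels of Eng, Furin and Thbs1 the averaged log2 fold changes are -0.66, -0.46 and -0.75.

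Among 10 activin and BMP receptors tested, 1 reached an unadjusted p under 0.05 averaged over genotypes, and it was lower. This is close to the 9.4% of all genes that did, so the genes named next are given as values only. That gene was Eng, endoglin, an endothelial TGF-beta co-receptor, with 312 and 338 CPM in Set7KO isoproterenol hearts, 452 and 291 CPM in Set7KO saline hearts, 164 and 214 CPM in WT isoproterenol hearts, and 351 and 480 CPM in WT saline hearts. The WT isoproterenol libraries were the lowest of the 8, and the Set7KO groups overlapped. The averaged log2 fold change was -0.66 ± 0.20 (adjusted p = 0.327; -0.49 with offsets), that in WT -1.14 ± 0.28 (adjusted p = 0.0941) and that of Set7KO against WT after isoproterenol 0.78 ± 0.28 (adjusted p = 0.232; edgeR). The activin and BMP receptors Acvr2a and Bmpr1a had interactions of -2.60 ± 0.61 and -2.47 ± 0.65 (adjusted p = 0.0876 and 0.0903), or -0.61 and -0.63 with offsets.

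Of 23 genes of TGF-beta activation and latency, 3 reached an unadjusted p under 0.05 averaged over genotypes, 1 higher and 2 lower, a share close to the 9.4% of all genes, so the genes named next are given as values only. Dcn, the TGF-beta binding proteoglycan decorin, was the higher one (0.79 ± 0.29, adjusted p = 0.438); Furin, the protease that cleaves the TGF-beta precursor (-0.46 ± 0.19, adjusted p = 0.507), and Thbs1, thrombospondin 1, an activator of latent TGF-beta (-0.75 ± 0.33, adjusted p = 0.531), were the lower ones. The integrin genes Itgav and Itgb1 had WT values of 1.13 ± 0.39 and 0.71 ± 0.26 (adjusted p = 0.113 and 0.117), and 0.04 and -0.07 with offsets. Of 11 other Smads and nuclear partners 1 was higher (Smad9, counted above as a BMP target), of 19 activin, BMP and GDF ligands and antagonists 3 were higher and 1 lower, and of 14 genes of the non-Smad branch 0 were higher and 1 lower (Akt1, -0.33 ± 0.14, adjusted p = 0.512; edgeR). The repressor Skil had an interaction of -2.31 ± 0.66 and the ubiquitin ligase Trim33 of -2.42 ± 0.63 (adjusted p = 0.0936 and 0.0903), and -0.50 and -0.79 with offsets. Inhbb, an activin subunit, was the lower of the ligands (-0.88 ± 0.31, adjusted p = 0.421), and Fstl1, follistatin-like 1, was among the higher (0.58 ± 0.21, adjusted p = 0.420). The kinase gene Rock2 had the largest interaction among those named here from the non-Smad branch relative to its error (-3.21 ± 0.61, adjusted p = 0.0876; -1.11 with offsets).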

How the data were processed

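RNA from 8 mouse heart samples was analysed from the deposited table of counts per gene, 1 column per library; these are whole-number counts made by the authors, not normalised. Per the labels' protocols, libraries came from a TruSeq stranded mRNA kit and were sequenced with single reads of 75 cycles. Per the submitters' processing notes, the tools included StringTie, HISAT, HISAT2 and edgeR and the build was GRCm38; no source used here gives their roles, versions or strand setting. Symbols, coordinates and GC content came from GENCODE M21.

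In edgeR 4.0.16 (R 4.3.3), 1 model with 4 group means covered the 8 libraries (TMM, filterByExpr, 17636 genes), and two-sided quasi-likelihood F-tests were adjusted by Benjamini-Hochberg with a threshold of 0.05. It left 4 residual degrees of freedom. Alternatives were DESeq2 1.42.0, limma-voom (limma 3.58.1), other size factors, no filter, spline offsets (5 degrees of freedom each) for GC content and exonic length, and fits without 1 library; a lone library left in a group was taken to have the spread of the rest. The procedure was also run on simulated counts. These held no GC difference between libraries and no interaction, so they cannot show how the fits behave under either. The genes and lists were chosen with earlier results of these data known. Genes named from lists had a mean of at least 1 CPM and were up to 3 with the smallest p for isoproterenol averaged over genotypes, and up to 2 each for Set7KO against WT after isoproterenol and for the interaction; not all of them are given in the text. Like genes had a mean of at least 2 CPM. The values of a single erythroid marker gene are not reported here.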

Additional observations from a re-analysis of the deposited data

How the results depend on the processing

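In edgeR the genes past the adjusted threshold numbered 0 for isoproterenol in Set7KO, 0 for isoproterenol in WT, 9 for isoproterenol averaged over genotypes, 1 for Set7KO against WT after saline, 1 for Set7KO against WT after isoproterenol and 0 for the interaction. With DESeq2 the counts that moved by over 1.5 times were 101 for isoproterenol in Set7KO, 2719 for isoproterenol in WT, 251 for isoproterenol averaged over genotypes, 21 for Set7KO against WT after saline, 297 for Set7KO against WT after isoproterenol and 2321 for the interaction. With no filter on low counts the counts that moved by over 1.5 times were 31 for isoproterenol in Set7KO, 1512 for isoproterenol in WT, 159 for isoproterenol averaged over genotypes, 19 for Set7KO against WT after saline, 3 for Set7KO against WT after isoproterenol and 1686 for the interaction. With limma-voom the counts that moved by over 1.5 times were 14 for isoproterenol averaged over genotypes. With size factors of DESeq2 in edgeR the counts that moved by over 1.5 times were 3 for isoproterenol in WT. With GC and length offsets the counts that moved by over 1.5 times were 3 for isoproterenol in WT. Leaving out 1 library at a time gave 0 to 486 for isoproterenol in Set7KO, 0 to 3765 for isoproterenol in WT, 0 to 42 for isoproterenol averaged over genotypes, 0 to 1030 for Set7KO against WT after saline, 0 to 2 for Set7KO against WT after isoproterenol and 0 to 5778 for the interaction. The highest count came without a Set7KO saline library in each comparison but Set7KO against WT after isoproterenol, where it came without Set7KO isoproterenol replicate 2. Each of these fits leaves 1 library alone in a group, with no spread of its own. Of the 10 genes, 1 (Tgfbr1) passed for isoproterenol in WT and in the interaction with DESeq2 and with no filter, and 0 elsewhere with all libraries. Without 1 library the number ranged from 0 to 2 for isoproterenol in WT, from 0 to 1 for isoproterenol in Set7KO, from 0 to 1 for Set7KO against WT after saline and from 0 to 4 for the interaction; the passes came without 1 or the other Set7KO saline library. No paired analysis was possible because the labels give no replicate number that is shared between groups.

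Of 780 log2 values of the 10 genes under alternatives, 717 kept their direction and their side of the threshold, 14 passed it and 49 changed sign. Depth limits Tgfbr1 (28 to 284 counts per library) and Tgfb2 (67 to 237) most. With GC and length offsets the reversed log2 values were 0.39 for Smad2 and -0.14 for Smad6 (isoproterenol in Set7KO), 0.035 for Smad6 and 0.17 for Smad7 (isoproterenol in WT), -0.032 for Tgfb2, -0.34 for Smad2, 0.19 for Smad6 and 0.10 for Smad7 (Set7KO against WT after saline), 0.19 for Tgfbr2 (Set7KO against WT after isoproterenol) and 0.20 for Smad2, -0.17 for Smad6 and -0.53 for Smad7 (the interaction). With limma-voom the reversed log2 values were -0.034 for Tgfb2 (isoproterenol in Set7KO) and -0.0079 for Tgfbr3 (Set7KO against WT after saline). With DESeq2 the reversed log2 values were -0.013 for Tgfb1 (isoproterenol averaged over genotypes). With size factors of DESeq2 the reversed log2 values were -0.013 for Tgfb1 (isoproterenol averaged over genotypes). With no filter the reversed log2 values were -0.0098 for Tgfbr2 (the interaction). Leaving out 1 library turned the sign of further values. For isoproterenol in Set7KO the lowest and highest log2 values were -0.50 and 0.39 for Tgfb2, -0.20 and 0.77 for Tgfb3, -0.77 and 0.89 for Tgfbr3, -0.47 and 0.62 for Smad2 and -0.091 and 0.33 for Smad3. For isoproterenol in WT the lowest and highest log2 values were -0.88 and 0.24 for Smad3. For isoproterenol averaged over genotypes the lowest and highest log2 values were -0.26 and 0.41 for Tgfb1, -0.36 and 0.13 for Tgfb3, -0.13 and 0.69 for Tgfbr3 and -0.37 and 0.19 for Smad3. For Set7KO against WT after saline the lowest and highest log2 values were -0.90 and 0.090 for Tgfb3, -0.86 and 0.77 for Tgfbr3, -0.42 and 0.64 for Smad2, -0.77 and 0.41 for Smad3 and -0.46 and 0.054 for Smad7. For Set7KO against WT after isoproterenol the lowest and highest log2 values were -0.18 and 0.10 for Tgfbr2, -0.018 and 0.58 for Smad3 and -0.22 and 0.061 for Smad7. For the interaction the lowest and highest log2 values were -0.12 and 0.19 for Tgfbr2, -1.27 and 0.40 for Tgfbr3, -0.11 and 1.02 for Smad3 and -0.15 and 0.41 for Smad7. The summed ligand level (log2 difference 0.0091) was -0.0072 with the size factors of DESeq2 and -0.27 to 0.28 without 1 library, and the Smad ratio (-0.27) was -0.57 to 0.035. The offsets are built to remove the GC trend over all genes, but over the 10 genes it remained in WT and on average. The cause of these changes was not tested for any setting.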
